A study of Mus musculus with 6 samples.

Results

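The small leucine-rich proteoglycans (SLRPs) are secreted matrix proteins with a core of leucine-rich repeats, and 10 of them were listed by gene symbol: Bgn, Dcn, Aspn, Fmod, Lum, Prelp, Omd, Kera, Ogn and Podn. Of these, 9 were among the 17924 genes of the table, and Kera, the cornea-rich member keratocan, was not. All 9 were tested. The libraries were made from dermal fibroblasts of the dorsal skin of newborn (P0) C57BL/6J mice after 14 days in adipocyte differentiation medium. The 3 CTL libraries came from Nelfb fl/wt or Nelfb wt/wt mice that carried Pdgfra-Cre, without a label for which of the genotypes each library had, and the 3 Nelfb-/- libraries came from Nelfb fl/fl mice that carried Pdgfra-Cre. Both groups thus carried the Cre, whose expression follows Pdgfra, a receptor gene of fibroblasts and adipocyte precursors, so that cells outside that lineage were not targeted. Nelfb encodes a subunit of the negative elongation factor that acts on paused RNA polymerase II. The study names the replicates biological triplicates, and the number of mice behind each library was not given in the sources used here.

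SLRP core proteins bind to the surface of collagen fibrils and govern how thick and how evenly spaced these become, and several also bind growth factors or innate immune receptors. Most of them carry glycosaminoglycan chains, which are chondroitin or dermatan sulfate on decorin and biglycan and keratan sulfate on fibromodulin, lumican and osteomodulin. In dermis, fibroblasts are their main source, and cells of the adipocyte lineage lay down a matrix that also contains SLRPs.

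The values were counts per 1e+06 reads on all listed genes (CPM), without a correction for length, and the depth was 17.2 to 29.4 M reads (M, 1e+06). Where a value is given for each library, the order is replicate 1, 2 and 3. Nelfb was at 17.3, 19.6 and 22.3 CPM in the CTL libraries against 5.50, 3.90 and 5.55 CPM in the Nelfb-/- libraries. CTL replicate 3 and Nelfb-/- replicate 1 stood apart from the other libraries of their groups on the second principal component, which held 27.7% of the variance. Markers of the labelled cell type, adipocytes, were read in both groups, with a summed level of 10 markers of 24200 to 40080 CPM in CTL and 17200 to 25140 CPM in Nelfb-/- cells. Of the 10, 7 had a negative log2 fold change in Nelfb-/- cells and 3 a positive one, with a median of -0.91. The study saw no Oil Red O staining for lipid, and less Plin1 protein, in its Nelfb-/- cells after 14 days in this medium. All 10 macrophage markers had a positive log2 difference in Nelfb-/- cells. By the limits given below, 9 were called higher, beside 7.58% of all genes tested. The summed level of the 10 was 235 to 826 CPM in CTL against 2301 to 7277 CPM in Nelfb-/- cells.

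The 9 measured genes lie on 5 chromosomes (GRCm38, positions from the GENCODE annotation). Aspn, Omd and Ogn stand in a row on the plus strand of chromosome 13, at 49544443 to 49567565, 49582462 to 49592822 and 49608046 to 49624501. Only 14897 bases separate Aspn from Omd, and 15224 separate Omd from Ogn. All 3 lie within the span of Cenpp, a centromere protein gene on the opposite strand, whose exons share 7 bases with Aspn and 0 with Omd or Ogn. Cenpp was between 0.373 and 3.41 CPM and was not called. Dcn and Lum lie side by side on chromosome 10 at 97479609 to 97518143 and 97565128 to 97572703, with Kera next at 97606879 to 97613692. Prelp and Fmod are neighbours on chromosome 1, at 133910304 to 133921414 on the minus strand and 134037254 to 134048277. Bgn is on chromosome X at 73483602 to 73495933. Podn is on the minus strand of chromosome 4 at 108014791 to 108096445, where its span overlaps that of Scp2 on the same strand by 52607 bases without a shared exon.

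The chromosome 13 row held both the member that fell and members with higher means, so the 250 bases before the RefSeq start of its genes are shown (GRCm38.p6, plus strand, 5′ to 3′). Capitals mark TATAAA or CCAAT on either strand. The windows are chr13:49544193-49544442 for Aspn, chr13:49582212-49582461 for Omd and chr13:49607765-49608014 for Ogn.
Aspn: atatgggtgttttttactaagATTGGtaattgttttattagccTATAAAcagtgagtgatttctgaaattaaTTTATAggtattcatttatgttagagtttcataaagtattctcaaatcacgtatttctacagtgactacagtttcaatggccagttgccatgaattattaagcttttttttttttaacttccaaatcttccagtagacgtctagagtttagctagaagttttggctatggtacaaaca
Omd: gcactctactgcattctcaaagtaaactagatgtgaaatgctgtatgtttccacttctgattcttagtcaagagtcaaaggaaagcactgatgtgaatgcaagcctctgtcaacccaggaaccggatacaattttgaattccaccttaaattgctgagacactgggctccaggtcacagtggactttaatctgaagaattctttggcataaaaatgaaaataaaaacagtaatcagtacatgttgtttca
Ogn: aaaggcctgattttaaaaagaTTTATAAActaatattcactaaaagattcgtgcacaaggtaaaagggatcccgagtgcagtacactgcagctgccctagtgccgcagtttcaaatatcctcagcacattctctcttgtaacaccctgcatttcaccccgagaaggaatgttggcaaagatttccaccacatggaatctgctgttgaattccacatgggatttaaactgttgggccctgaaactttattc
TATAAA was present in Aspn and Ogn and in 12.4% of the 32851 mouse promoters of this length. In Ogn the capitals hold TATAAA on both strands in overlapping letters, the first of them 229 bases before the start. CCAAT was present in Aspn, Prelp and Kera and in 33.8% of all promoters. GGGCGG was present in Bgn and Podn and in 32.7% of all promoters, and TGANTCA in 0 of the 9 member promoters and in 6.75% of all. The Omd window held none of these 4 motifs. Dcn and Lum had no entry among the promoters used.

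To compare the family between genotypes, the 16252 genes that averaged 10 reads or more were tested with limma, and a gene was called where its adjusted p did not exceed 0.05 and its change reached 2-fold. Among the 9 members, 1 was called, Ogn, which was lower in Nelfb-/- cells, while 11.2% of all genes tested were called and 3.64% were called lower. The other 8 members were not called, and their log2 fold changes, Nelfb-/- relative to CTL, lay between -0.26 for Fmod and 1.26 for Aspn. Positive differences were found for 5 members and negative ones for 4. The median difference was 0.13 on the log2 scale over the members and 0.07 over all genes tested. The 3 libraries of one genotype lay fully apart from those of the other for 1 of the 9 members and for 38.1% of all genes tested, and the Nelfb-/- libraries lay below the CTL libraries for 16.1%.

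**Figure D1:**
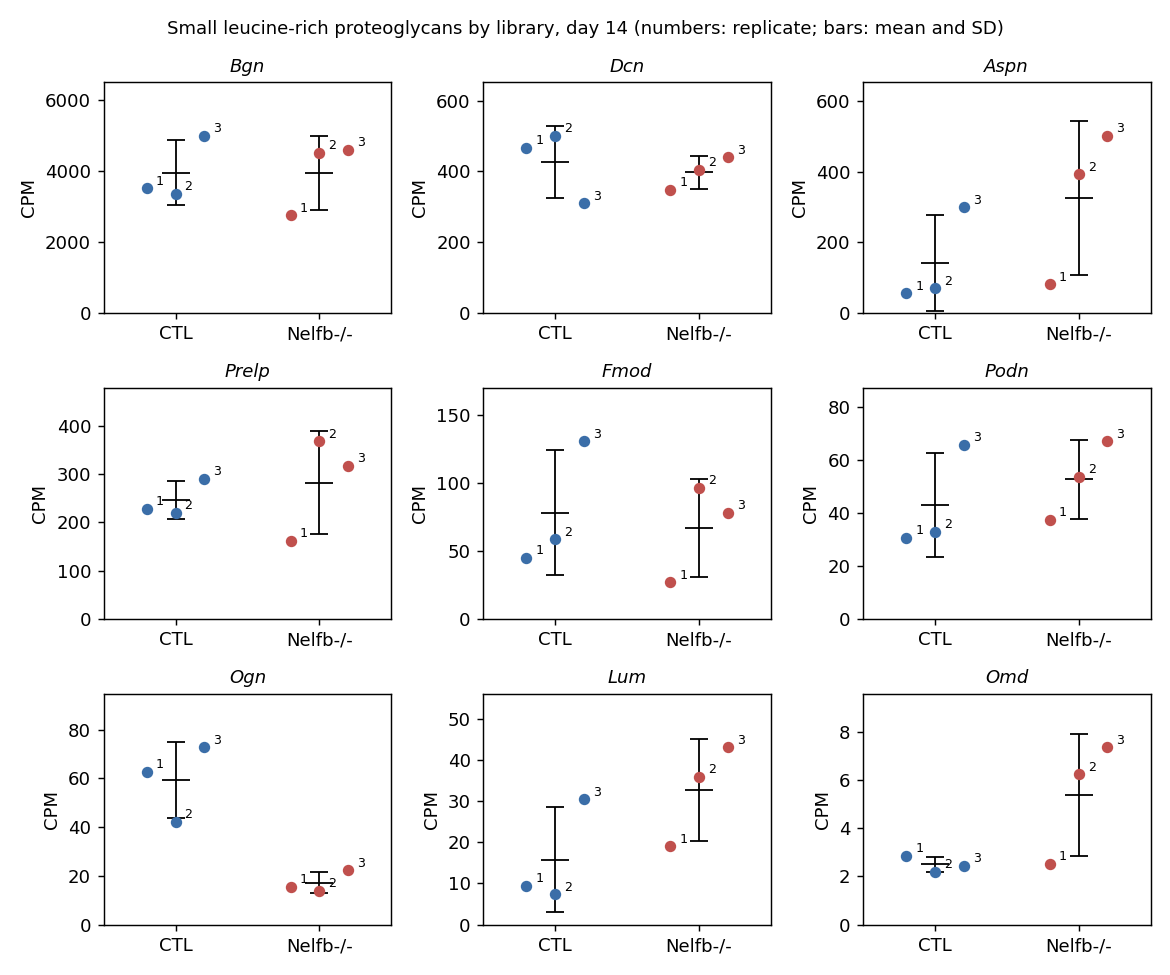
CPM (vertical axes, from 0) of the 9 SLRP genes in the 3 CTL (blue) and 3 Nelfb-/- (red) libraries, numbered by replicate, with the mean and SD in black. The Nelfb-/- libraries lie below all CTL libraries for Ogn alone, at 14.0 to 22.3 CPM against 42.1 to 72.7 CPM.

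Ogn encodes osteoglycin, also named mimecan, a class III SLRP that binds collagen and is known from bone, cornea and vessel wall. Its levels (ENSMUSG00000021390) were 62.6, 42.1 and 72.7 CPM in the CTL libraries against 15.6, 14.0 and 22.3 CPM in the Nelfb-/- libraries. The highest Nelfb-/- library was below the lowest CTL library. The means were 59.2 ± 15.6 CPM (SD, n = 3) and 17.3 ± 4.43 CPM (SD, n = 3), a 3.40-fold decrease with a log2 fold change of -1.77 (95% interval -2.41 to -1.12, SE 0.27, adjusted p in limma 0.011). An exact two-sided permutation test of Ogn alone gave p = 0.1, the smallest that 3 against 3 libraries allow. Among the 592 genes called lower, Ogn ranked 233 by the size of its decrease. Without CTL replicate 3 or without Nelfb-/- replicate 1, Ogn was still called, and over the 6 fits that each left out 1 library its log2 fold change lay between -1.99 and -1.60 with a limma adjusted p between 0.017 and 0.047. In a gene-by-gene fit without moderation of the variance its adjusted p was 0.056, so that no member was called. In bulk RNA, fewer cells that express a gene and less RNA of that gene in each cell cannot be told apart. For the marker counts that follow, the share over all genes tested was 7.58% called higher and 3.64% called lower. Beside the decrease of Ogn, 2 of 10 adipocyte markers were called lower and 1 higher, 2 of 9 tested preadipocyte and fibroblast markers were called higher and 0 lower, and the macrophage markers stood as given above. Of 6 tested tendon markers, 2 were called higher and 0 lower, and the 7 in the table summed to 228 to 535 CPM in CTL against 1670 to 3838 CPM in Nelfb-/- cells. The higher sum came from Tnc, the matrix glycoprotein tenascin C, at 142 ± 84.3 CPM for CTL and 2752 ± 1157 CPM for Nelfb-/- cells (SD, n = 3). Without it, the other 6 summed to 153, 144 and 297 CPM in CTL against 231, 218 and 217 CPM in Nelfb-/- libraries, which overlap. Nearly all of that remainder was Egr1, at 151, 141 and 290 CPM in CTL against 225, 203 and 202 CPM in Nelfb-/- libraries. The other called tendon marker, Tnmd, was at 1.12 ± 0.628 CPM for CTL and 6.30 ± 2.95 CPM for Nelfb-/- cells (SD, n = 3). Of 6 myofibroblast markers, 0 were called by limma, 1 passed an unadjusted p of 0.05, and they summed to 987 to 1386 CPM in CTL against 605 to 1632 CPM in Nelfb-/- cells. Of 6 melanocyte markers, 5 were called higher and 0 lower, with sums of 48.6 to 73.7 CPM in CTL against 51.9 to 168 CPM in Nelfb-/- cells. Nearly all of the CTL sums was Mitf, the marker not called, at 63, 72 and 47 CPM in CTL against 96, 22 and 27 CPM in Nelfb-/- libraries. Among the called markers, Dct was at 0.271 ± 0.176 CPM for CTL and 19.9 ± 8.47 CPM for Nelfb-/- cells (SD, n = 3). Pmel was at 0.998 ± 0.124 CPM for CTL and 3.35 ± 0.977 CPM for Nelfb-/- cells (SD, n = 3). Of 4 tested Schwann cell markers, 2 were called higher and 1 lower, with sums of 46.9 to 58.1 CPM against 90.3 to 115 CPM, and all 3 tested skeletal muscle markers were called higher, with sums of 5.50 to 6.43 CPM against 26.2 to 37.4 CPM. Among 5 tested endothelial, 4 keratinocyte and 5 cartilage and bone markers, 1 each was called higher. Tyr, Dct, Mlana, Tyrp1, Myog, Emcn, Krt14 and Acan of these lists reached the mean of 10 reads only through the Nelfb-/- libraries. The part of such cells in the decrease was not tested.

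**Figure D2:**
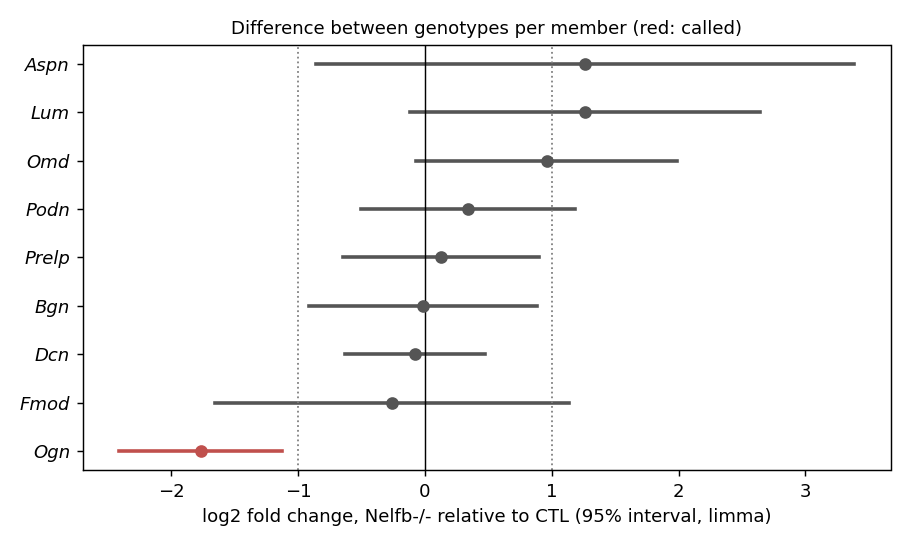
Log2 fold change of each member in Nelfb-/- relative to CTL cells (horizontal axis), with its 95% interval from limma as a line and dotted marks at a 2-fold change either way. Ogn, in red, is the called member, and the intervals of the other 8 all include 0.

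The class I SLRPs Bgn and Dcn, which hold a chondroitin or dermatan sulfate chain, had the highest mean CPM of the family, and neither was called. Bgn (ENSMUSG00000031375), or biglycan, a collagen-binding proteoglycan whose free form is also a ligand of Toll-like receptors, was at 3517, 3355 and 5005 CPM in the CTL libraries against 2750, 4521 and 4602 CPM in the Nelfb-/- libraries. Its log2 fold change was -0.02 (95% interval -0.91 to 0.88, SE 0.37, adjusted p in limma 0.98). Bgn thus spread 1.67-fold between the Nelfb-/- libraries and its interval still allowed changes of close to 2-fold in either direction. Because Bgn lies on chromosome X, Xist, the transcript of the inactive X chromosome, was also read. It read 772, 29.8 and 15.3 CPM across the CTL libraries and no more than 0.427 CPM in the Nelfb-/- libraries, and its adjusted p in limma was 0.016. The sex of the mice behind each library was not given in the sources used here, so that a difference in sex between the groups cannot be told apart from genotype in any comparison given here. Its part in the Bgn values was not tested. Without CTL replicate 1, the library with the highest Xist, Ogn had a log2 fold change of -1.71 and an adjusted p in limma of 0.047. That fit does not balance Xist, which stays at 29.8 and 15.3 CPM in the remaining CTL libraries, so that it cannot decide on sex.

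Dcn (ENSMUSG00000019929), or decorin, which limits the lateral growth of collagen fibrils and binds TGF-beta, was at 467, 501 and 310 CPM in the CTL libraries against 348, 404 and 440 CPM in the Nelfb-/- libraries. All 3 Nelfb-/- values fell between the lowest and the highest CTL value. This gave a log2 fold change of -0.08 (95% interval -0.63 to 0.47, SE 0.23, adjusted p in limma 0.85). Dcn was also the member for which CTL replicate 3 was the lowest rather than the highest CTL library.

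Aspn (ENSMUSG00000021388), or asporin, is a class I member with a run of aspartates in place of the chain attachment site, and it binds collagen and TGF-beta. It was at 55.0, 69.8 and 299 CPM in the CTL libraries against 80.6, 392 and 503 CPM in the Nelfb-/- libraries. CTL replicate 3 and Nelfb-/- replicate 1 crossed over, with a spread of 5.43-fold within CTL and 6.23-fold within Nelfb-/- cells. Its log2 fold change was 1.26 (95% interval -0.86 to 3.38, SE 0.88, adjusted p in limma 0.37), the widest interval in the family. It lay between 0.76 without Nelfb-/- replicate 3 and 2.08 without Nelfb-/- replicate 1, and Aspn was not called in any of the 6 fits that left out 1 library.

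Among the class II SLRPs, which can carry keratan sulfate or sulfated tyrosines, none was called with all 6 libraries in the fit. Lum (ENSMUSG00000036446), or lumican, which keeps fibrils thin and evenly spaced in cornea and skin, was at 9.43, 7.37 and 30.4 CPM in the CTL libraries against 19.0, 35.9 and 43.0 CPM in the Nelfb-/- libraries. The groups overlapped only through CTL replicate 3, which was above Nelfb-/- replicate 1. In log2 units the difference came to 1.26 (95% interval -0.12 to 2.64, SE 0.58, adjusted p in limma 0.19). Without CTL replicate 3 it was 1.88 with an adjusted p of 0.024 in limma, so that Lum was then called, and without Nelfb-/- replicate 1 it was not called.

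Omd (ENSMUSG00000048368), or osteomodulin, a keratan sulfate proteoglycan of mineralized matrix, was the least abundant member. It was at 2.84, 2.19 and 2.45 CPM in the CTL libraries against 2.51, 6.23 and 7.34 CPM in the Nelfb-/- libraries. Nelfb-/- replicate 1 was within the CTL range and the other two were well above it. On the log2 scale the difference was 0.96 (95% interval -0.07 to 1.99, SE 0.43, adjusted p in limma 0.18). Without Nelfb-/- replicate 1 it was 1.43 with an adjusted p of 0.021 in limma, and Omd was then called.

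Fmod (ENSMUSG00000041559), or fibromodulin, which takes part in the assembly and crosslinking of collagen fibrils, was at 45.1, 58.5 and 131 CPM in the CTL libraries against 26.8, 96.4 and 77.8 CPM in the Nelfb-/- libraries. The lowest value of all was in Nelfb-/- replicate 1 and the highest in CTL replicate 3. This gave a log2 fold change of -0.26 (95% interval -1.65 to 1.14, SE 0.58, adjusted p in limma 0.79). Prelp (ENSMUSG00000041577), a member with a basic N-terminal stretch that binds heparin-like chains, was at 227, 219 and 291 CPM in the CTL libraries against 162, 368 and 317 CPM in the Nelfb-/- libraries. Its CTL libraries lay within the range of the Nelfb-/- libraries. Its log2 fold change was 0.13 (95% interval -0.65 to 0.90, SE 0.32, adjusted p in limma 0.82).

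Podn (ENSMUSG00000028600), or podocan, is a class V SLRP first described in kidney. It was at 30.7, 33.0 and 65.8 CPM in the CTL libraries against 37.4, 53.8 and 67.1 CPM in the Nelfb-/- libraries. The groups overlapped only through CTL replicate 3, which was above Nelfb-/- replicates 1 and 2. In log2 units the difference came to 0.34 (95% interval -0.50 to 1.18, SE 0.35, adjusted p in limma 0.55). With 1 library left out, it lay between 0.14 without CTL replicate 1 and 0.69 without CTL replicate 3 (adjusted p in limma 0.87 and 0.12).

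The spread within a genotype was wider in this family than over the table. The median SD of log2 CPM within a group was 0.41 in CTL and 0.62 in Nelfb-/- cells over the 9 members, against 0.29 in each group over all genes tested. CTL replicate 3 was the highest CTL library for 7 of 9 members and for 47.9% of all genes tested. Nelfb-/- replicate 1 was the lowest Nelfb-/- library for 8 of 9 members and for 45.0% of all genes tested. Both held for 6 members. The exceptions to the first were Dcn and Omd, and the exception to the second was Ogn, whose lowest Nelfb-/- library was replicate 2.

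**Figure D3:**
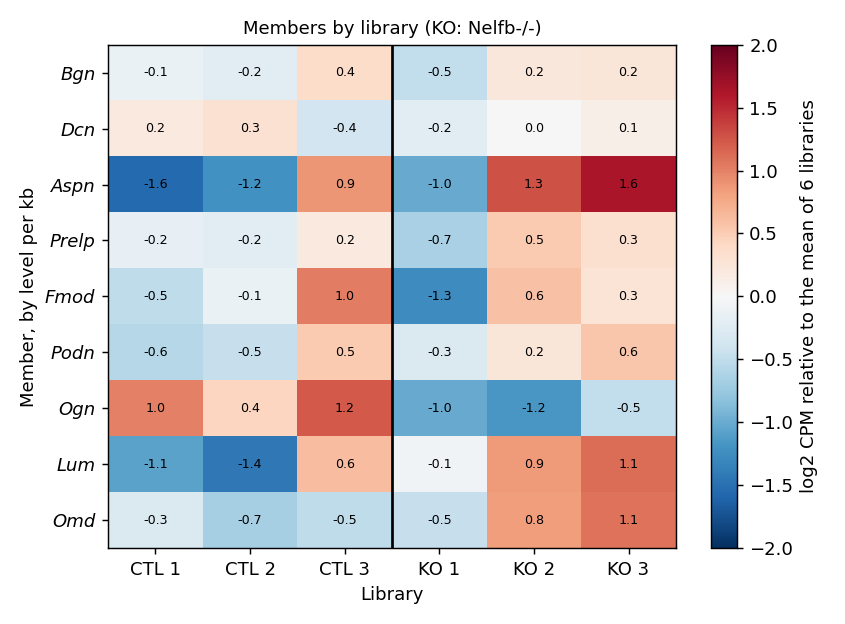
Log2 CPM of each member (rows, ordered by level per kb) in each library (columns, KO for Nelfb-/-), as the difference from the member's mean over the 6 libraries. CTL replicate 3 is the highest CTL library in 7 of 9 rows and Nelfb-/- replicate 1 the lowest Nelfb-/- library in 8, and Ogn is the row that splits at the line between the genotypes.

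Across the 6 libraries, the log2 values of Aspn and Podn had a Pearson r of 0.961, those of Bgn and Fmod 0.956, those of Aspn and Lum 0.930 and those of Bgn and Prelp 0.922. These are descriptions over libraries that share depth, genotype and the libraries that stood apart. The r of Ogn with Bgn was 0.198, with Fmod 0.270, with Aspn -0.313, with Lum -0.446 and with Omd -0.572. The genes of the table whose log2 values were most like those of Ogn were Rilp, which encodes a lysosome transport adaptor (r = 0.998), Chn1 (r = 0.992) and Rsu1 (r = 0.992). Rilp was called lower, at 3.57 ± 1.08 CPM (SD, n = 3) in CTL and 0.966 ± 0.193 CPM (SD, n = 3) in Nelfb-/- cells, and its limma adjusted p rose to between 0.066 and 0.076 without CTL replicate 1, Nelfb-/- replicate 2 or Nelfb-/- replicate 3. Chn1 and Rsu1 were not called. The genes most like Bgn were Fdps, an enzyme of the isoprenoid pathway (r = 0.995), Snrpe, a splicing protein gene (r = 0.993), and Fads3 (r = 0.993), none of them called.

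To compare levels between members, CPM was divided by the length in kb of the longest protein-coding transcript. In CTL the order was Bgn at 1637 ± 376 CPM per kb (SD, n = 3), Dcn at 242 ± 58.0, Prelp at 68.0 ± 10.8, Aspn at 60.6 ± 58.7, Fmod at 25.0 ± 14.7, Ogn at 23.1 ± 6.07, Podn at 13.6 ± 6.19, Lum at 6.43 ± 5.20 and Omd at 1.11 ± 0.145 CPM per kb. In Nelfb-/- cells Ogn stood at 6.73 ± 1.73 CPM per kb (SD, n = 3) and had moved from rank 6 to rank 8, below Podn at 16.6 ± 4.70 and Lum at 13.3 ± 5.03. Aspn, at 140 ± 94.0 CPM per kb, was above Prelp at 78.1 ± 29.6, while the order of these neighbours differed between libraries, with Aspn above Prelp in 3 of 6. Neighbours in the order over all 6 libraries that changed places in some of them were Aspn and Prelp, Fmod and Podn, Podn and Ogn, and Ogn and Lum. The higher member of the other 4 neighbouring pairs was above the lower in 6 of 6 libraries on this length. With the length of all exons of a gene joined, Bgn was still above Dcn in 6 of 6 libraries, while Dcn was above Aspn in 3 of 6 and above Prelp in 3 of 6. Dcn was then at 73.0 CPM per kb in CTL, against 68.0 for Prelp and 60.0 for Aspn, and at 68.0 CPM per kb in Nelfb-/- cells, below Aspn at 138 and Prelp at 78.1.

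The level of the family as a whole did not separate by genotype. The summed level of the 9 members was 4417, 4289 and 6207 CPM in the CTL libraries against 3442, 5892 and 6078 CPM in the Nelfb-/- libraries. The means were 4971 ± 1072 CPM (SD, n = 3) and 5137 ± 1471 CPM (SD, n = 3), and an exact two-sided permutation test gave p = 1.0. Bgn made up 79.5% ± 1.21 of the summed CPM in CTL and 77.5% ± 2.19 in Nelfb-/- cells (SD, n = 3, exact permutation p = 0.3). Without Bgn, the sum was 1012 ± 165 CPM for CTL and 1180 ± 426 CPM for Nelfb-/- cells (SD, n = 3, exact permutation p = 0.6).

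As a share of the summed CPM per kb of the family, Ogn took 1.31%, 0.906% and 1.11% in the CTL libraries and 0.418%, 0.223% and 0.344% in the Nelfb-/- libraries. Its exact permutation p was 0.1, the smallest possible, and 0.3 after adjustment over the 9 shares. Lum took 0.286% ± 0.174 of the family in CTL and 0.610% ± 0.0794 in Nelfb-/- cells (SD, n = 3), and all 3 Nelfb-/- libraries were above all 3 CTL libraries. Omd took 0.0548% ± 0.0127 and 0.107% ± 0.0267 (SD, n = 3), and its groups did not overlap either. The exact permutation p of both was 0.1, or 0.3 after adjustment. The share of Bgn was 78.5% ± 2.19 and 76.7% ± 1.65 (SD, n = 3, exact permutation p = 0.5). With the length of all exons of a gene joined in place of the longest transcript, the difference in the Bgn share was -4.44 percentage points in place of -1.80. The difference then went from -0.78 to -1.81 percentage points for Ogn, from 0.32 to 0.69 for Lum, from 0.052 to 0.11 for Omd, from 3.29 to 6.77 for Aspn, from -0.20 to -0.52 for Fmod and from 0.15 to 0.20 for Podn. It was slightly smaller for Prelp, at 0.27 in place of 0.28, and for Dcn, at -1.27 in place of -1.32, and all 9 kept their signs with this length. With the longest transcript, leaving out 1 library turned the sign for some members. These were Dcn without CTL replicate 2, Fmod without CTL replicate 3 and Prelp without Nelfb-/- replicate 2. The difference for Aspn also ran from 1.998 without Nelfb-/- replicate 3 to 5.07 without Nelfb-/- replicate 1.

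Ratios between members of the same library do not depend on the scaling of that library, and 7 of them were computed after the values above had been seen. Aspn and Ogn, 40481 bases apart on chromosome 13, had a ratio of CPM of 0.879, 1.66 and 4.11 in CTL and of 5.18, 28.1 and 22.5 in Nelfb-/- replicates 1, 2 and 3. Every Nelfb-/- library was above every CTL library, and the ratio of the geometric means was 8.18. That value moved to 13.8 without Nelfb-/- replicate 1 and to 12.3 without CTL replicate 3, and its lowest value with 1 library left out was 5.69, without CTL replicate 1. Omd and Ogn had a ratio of 0.0454, 0.0521 and 0.0337 in CTL and of 0.162, 0.446 and 0.329 in Nelfb-/- cells, 6.68-fold higher. Lum and Ogn, on different chromosomes, had a ratio that was 8.19-fold higher in Nelfb-/- cells and likewise did not overlap. The exact permutation p of these 3 ratios was 0.1 each, the smallest possible, and 0.23 after adjustment over the 7. Ogn, the member already called, was the denominator of all 3, so that their separation is not independent of its decrease. The ratio of Aspn to Omd, the other pair of the row, was 1.23-fold higher with overlapping groups (exact permutation p = 0.8), and it was 0.829-fold without CTL replicate 1 and 2.08-fold without CTL replicate 3. Ratios of Lum to Dcn, of Fmod to Prelp and of Bgn to Dcn also overlapped, with an exact permutation p of 0.4, 0.4 and 0.9.

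**Figure D4:**
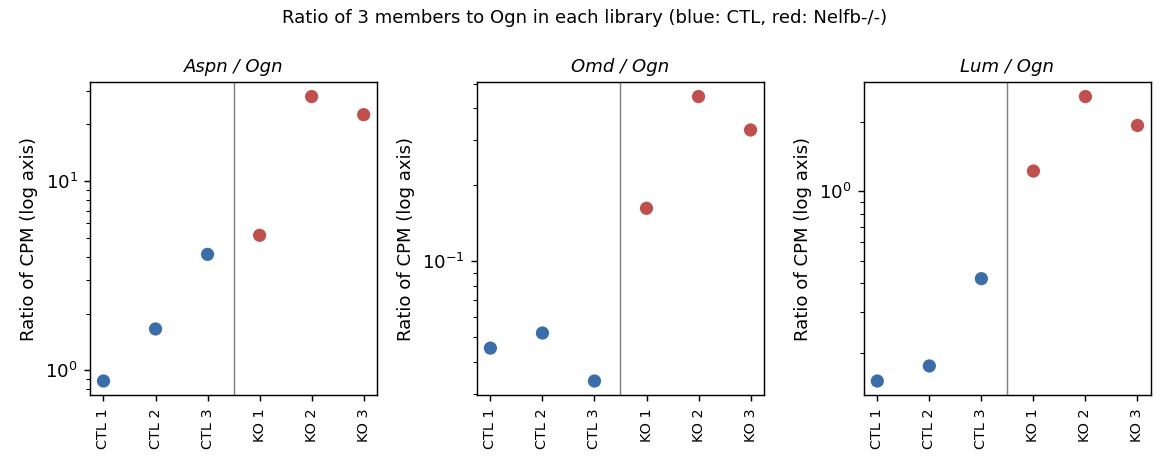
Ratio of the CPM of Aspn, Omd and Lum to that of Ogn (vertical log axes) in each CTL (blue) and Nelfb-/- (red, KO) library. In all 3 panels each Nelfb-/- library is above every CTL library, and Aspn to Ogn runs from 0.879 to 4.11 in CTL and from 5.18 to 28.1 in Nelfb-/- cells. Ogn, the called member, is the denominator of all 3, so that they are not independent of its decrease.

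The closest relatives of the family were read from a list of 8 genes, of which 7 were in the table and 6 were tested. Tsku, which encodes tsukushi, a secreted SLRP of class IV that is made by liver and fat and binds BMP proteins, was called lower. It was at 153, 193 and 79.8 CPM in the CTL libraries against 46.9, 36.7 and 35.6 CPM in the Nelfb-/- libraries, a log2 fold change of -1.75 (limma, SE 0.33, adjusted p of 0.019). Its 3 Nelfb-/- libraries were all below the CTL libraries, as for Ogn. The adjusted p rose to between 0.059 and 0.084 when CTL replicate 1 or 2 or Nelfb-/- replicate 2 or 3 was left out. Nyx, or nyctalopin, known from retina, averaged 10 reads only through the Nelfb-/- libraries, so that it could be tested only because it is high there, and no support is drawn from its call. It was at 0.0902, 0.0933 and 0.170 CPM in the CTL libraries against 1.57, 1.11 and 0.979 CPM in the Nelfb-/- libraries, with CTL replicates 1 and 2 under the floor of 3 reads. Ecm2, next to Aspn on chromosome 13, was at 0.956 ± 0.562 CPM for CTL and 1.80 ± 1.16 CPM for Nelfb-/- cells (SD, n = 3) and was not called.

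The sugar chains of SLRPs are built by enzymes of the linker, of the chondroitin and dermatan sulfate chain and of the keratan sulfate chain, with sulfate supplied as PAPS. Of 7 tested linker genes, 1 was called higher and 0 lower, 14.3% of the list and close to the 11.2% of all genes tested that were called. This was Pxylp1, a xylose phosphatase that frees the linker for extension, at 3.54 ± 0.443 CPM for CTL and 13.9 ± 4.17 CPM for Nelfb-/- cells (SD, n = 3, log2 fold change 1.93, limma, adjusted p = 0.0083, and 0.051 without Nelfb-/- replicate 3). Of 15 tested genes of chondroitin and dermatan sulfate synthesis, 1 was called higher and 0 lower, 6.67% of the list and below the 11.2% over all genes. Csgalnact1, which starts the chondroitin chain, was at 14.9, 13.6 and 31.0 CPM in the CTL libraries against 62.9, 117 and 148 CPM in the Nelfb-/- libraries (log2 fold change 2.48, limma, adjusted p = 0.014, and 0.054 to 0.066 without CTL replicate 1 or 2 or Nelfb-/- replicate 2 or 3). Of 6 tested genes of keratan sulfate synthesis, 0 were called by limma, 1 passed an unadjusted p of 0.05, and 6 had a positive difference, with a median of 0.36 on the log2 scale.

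Sulfate supply held a gene that fell. Papss2, which makes the sulfate donor PAPS, was at 47.9, 49.9 and 40.3 CPM in the CTL libraries against 15.2, 16.8 and 17.9 CPM in the Nelfb-/- libraries. These groups lay far apart, with a log2 fold change of -1.46 (limma, SE 0.15, adjusted p of 0.0042), and the call held in each fit that left out 1 library. It was the 1 gene called among 6 tested in this list, beside 11.2% of all genes tested.

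A list of proteases that cleave SLRPs or their collagen partners, with the procollagen protease enhancers Pcolce and Pcolce2, held 14 tested genes. Of these, 3 were called higher, 21.4% of the list against 7.58% of all genes tested. Bmp1, which removes the propeptides of biglycan, osteoglycin and fibrillar collagens, was at 47.9, 52.6 and 105 CPM in the CTL libraries against 176, 442 and 402 CPM in the Nelfb-/- libraries (log2 fold change 2.29, limma, adjusted p = 0.020). Adamts5, an aggrecanase, was at 146, 130 and 180 CPM in the CTL libraries against 488, 543 and 529 CPM in the Nelfb-/- libraries (log2 fold change 1.79, limma, adjusted p = 0.0040). Adamts4, an enzyme of the same kind, was at 11.1 ± 3.30 CPM for CTL and 33.1 ± 10.5 CPM for Nelfb-/- cells (SD, n = 3, log2 fold change 1.55, limma, adjusted p = 0.025). Adamts5 was called in each fit that left out 1 library. Bmp1 had an adjusted p of up to 0.087 and Adamts4 of up to 0.10 without CTL replicate 1 or 2 or Nelfb-/- replicate 2 or 3.

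**Figure D5:**
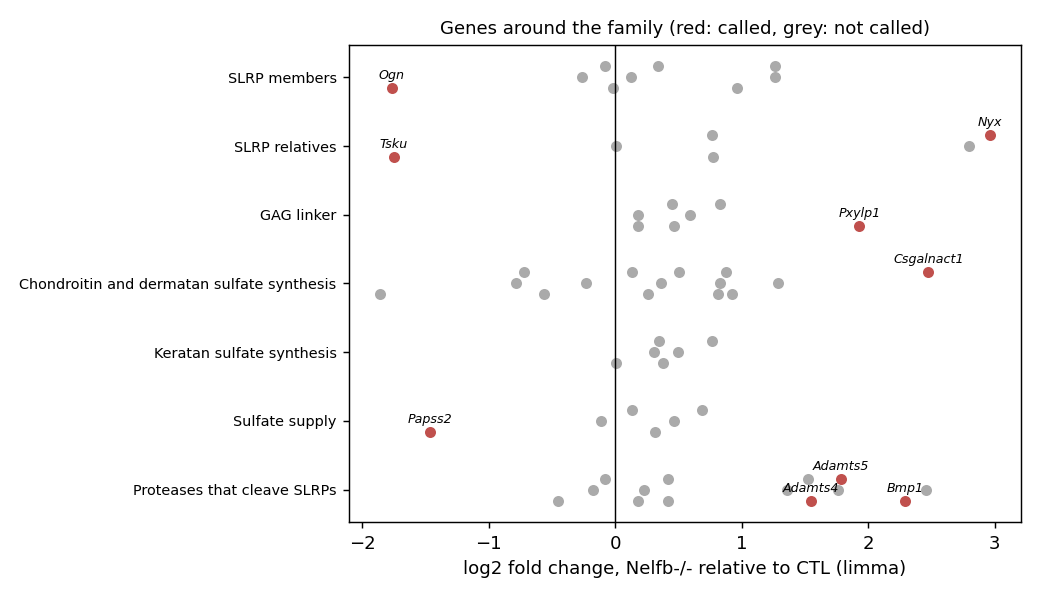
Log2 fold change in Nelfb-/- relative to CTL cells (horizontal axis) of each tested gene of the SLRP family, its relatives, the enzymes of its glycosaminoglycan (GAG) chains, sulfate supply and the proteases, with called genes in red and named. Ogn, Tsku and Papss2 are the called genes left of 0.

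The partners of SLRPs in the matrix were read in the same way. Of 17 tested fibrillar collagens and partners, 2 were called higher and 0 lower, 11.8% of the list and close to the 11.2% of all genes tested. These were Col14a1 (27.0 ± 14.9 against 93.3 ± 16.2 CPM, log2 fold change 1.91, limma, adjusted p = 0.023) and the fibronectin gene Fn1 (1728 ± 543 against 4506 ± 756 CPM, log2 fold change 1.41, limma, adjusted p = 0.038), both as SD over n = 3. Their adjusted p rose to 0.057 to 0.083 for Col14a1 and 0.12 to 0.16 for Fn1 without CTL replicate 1 or 2 or Nelfb-/- replicate 2 or 3. The summed level of the list was 13620, 13200 and 38740 CPM in the CTL libraries against 22680, 60220 and 63440 CPM in the Nelfb-/- libraries. CTL replicate 3 was here again above Nelfb-/- replicate 1, as for Aspn and Lum.

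Of 20 large and cell surface proteoglycans tested, 6 were called higher and 1 lower, 35.0% of the list against 11.2% of all genes tested. Srgn, the proteoglycan of secretory granules that is abundant in blood cells, was at 12.4 ± 2.50 CPM for CTL and 60.7 ± 6.15 CPM for Nelfb-/- cells (SD, n = 3, log2 fold change 2.30, limma, adjusted p = 0.0034). Sdc3, a syndecan, was at 53.4, 34.4 and 171 CPM in the CTL libraries against 360, 312 and 349 CPM in the Nelfb-/- libraries (limma, adjusted p = 0.037), and its adjusted p was 0.069 to 0.12 in the fits that left out a library other than CTL replicate 3. Acan, the aggrecan of cartilage, was at 0.0902, 0.0467 and 0.680 CPM in the CTL libraries against 1.61, 7.04 and 7.51 CPM in the Nelfb-/- libraries. Spock1, or testican, was listed at 0 in CTL replicates 1 and 2 and at 0.238 CPM in CTL replicate 3, against 0.616, 0.873 and 1.35 CPM in the Nelfb-/- libraries. Acan and Spock1 reached the mean of 10 reads only through the Nelfb-/- libraries, where they are high, so that their calls, which are in the count, lend it no support.

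A list of ligands and receptors that SLRPs bind, or whose receptor they bind, held 20 tested genes. Of these, 3 were called higher and 0 lower, 15.0% of the list against 11.2% of all genes tested. Hgf, the ligand of Met, a receptor that decorin binds, rose from 1.35 ± 0.533 to 8.93 ± 3.43 CPM (SD, n = 3, limma, adjusted p = 0.013, and up to 0.068 without CTL replicate 1 or Nelfb-/- replicate 2 or 3). Tlr2 and Cd14, an innate immune receptor and its co-receptor, both bound by soluble biglycan, were also called higher. Tlr2 was at 4.14 ± 1.20 CPM for CTL and 15.4 ± 3.46 CPM for Nelfb-/- cells, and Cd14 at 2.93 ± 0.758 CPM for CTL and 11.7 ± 4.84 CPM for Nelfb-/- cells (SD, n = 3, limma, adjusted p = 0.011 and 0.017). Both genes are expressed by macrophages, and Cd14 is itself among the 10 macrophage markers, of which 9 were called higher. Their calls were lost without Nelfb-/- replicate 3 for Tlr2 (limma, adjusted p = 0.062) and without CTL replicate 2 or Nelfb-/- replicate 2 or 3 for Cd14 (limma, adjusted p up to 0.066). The part of macrophages in these differences was not tested.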

How the data were processed

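RNA-seq was measured in 3 CTL and 3 Nelfb-/- libraries. The authors aligned reads to mm10. Their processing notes list STAR 2.7 and Partek 9.0.20.0202, the methods name DESeq2, and the counting and its use of strand are not given in the sources used here. The values deposited by the authors are CPM plus an offset of 0.0001, and genes whose highest library held under 10 reads were absent. The offset was subtracted. The lowest values gave the worth of 1 read and a depth of 17.2 to 29.4 M reads (M, 1e+06), at which 3 reads, the floor, were 0.102 to 0.175 CPM. Only 68.9% to 71.5% of values up to 20 reads were whole within 0.02 reads, so that no count test was run.

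CPM was set in reads at a common depth of 22.3 M. Genes averaging 10 reads (0.448 CPM) or more, 16252 in all, entered limma (version 3.58.1 in R 4.3.3) as log2(reads + 1), with an abundance trend and Benjamini-Hochberg adjustment over them all, in a script tested on simulated data. Fold changes are on this scale, which understates those of low genes. Called means an adjusted p of at most 0.05 and at least 2-fold. In limma, a p-value weighs the group difference against the moderated spread between libraries of a group. The number of mice behind each library was not given. Single values were compared by exact two-sided permutation (scipy 1.17.1).

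The members and lists were chosen with earlier results of these data known. Named genes are the members, Nelfb, at most 4 called genes per list of pathway genes with the largest change, list genes beside a member, and the 3 genes closest in pattern to Ogn and to Bgn. Bpnt2 was matched as Impad1. Cenpp, Scp2, Xist, Tnc and the cell type markers named singly were chosen after their values were seen. Positions and transcript lengths are from GENCODE on GRCm38, and promoters from RefSeq. Alternatives were other pseudocounts, filters, scalings and variance models, a replicate block and leaving out each library.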

Additional observations from a re-analysis of the deposited data

How the results depend on the processing

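Ogn was called in 15 of 16 alternatives, with a log2 fold change between -1.99 and -1.60. In a gene-by-gene linear model (limma without eBayes), that is without moderation of the variance, 0 members were called and 1 passed an unadjusted p of 0.05, with 684 genes called over the whole table in place of 1824. The number of called members was 1 to 2 and that of all called genes 426 to 2479 over the fits that left out 1 library, the lowest without Nelfb-/- replicate 3 and the next without CTL replicate 2 (758), CTL replicate 1 (871) and Nelfb-/- replicate 2 (945). That model also lost the calls of Tsku, Csgalnact1, Acan, Spock1, Sdc3, Col14a1, Fn1, Hgf, Cd14, Bmp1, Adamts4 and Rilp, at adjusted p between 0.052 and 0.13. Fn1 was lost with the replicate block (0.052) and Sdc3 without an abundance trend (0.052). A second member was called without CTL replicate 3 (Lum) or without Nelfb-/- replicate 1 (Omd).

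Signs near 0 turned when a library was left out. The log2 differences then ran from -0.29 to 0.056 for Dcn (turned without CTL replicate 1, CTL replicate 2 or Nelfb-/- replicate 1), from -0.14 to 0.23 for Bgn, from -0.62 to 0.30 for Fmod, from -0.42 to 0.53 for Fdps and from -0.11 to 0.18 for Snrpe (these 4 turned if either CTL replicate 3 or Nelfb-/- replicate 1 was absent), from -0.11 to 0.49 for Prelp (turned without Nelfb-/- replicate 2) and from -0.28 to 0.54 for Fads3. Fads3 also turned with the other scalings, to -0.069 and -0.070. No member changed sign with another scaling, pseudocount or filter. The difference in the Bgn share was -1.80 percentage points, -2.80 to -0.63 with 1 library left out, and -4.44 with joined exon lengths, a choice added after seeing the data, as were the order of levels on that length, the ratios with 1 library left out and the tendon sum without Tnc.

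The deviations of libraries with the same replicate number correlated at r = 0.515 and 0.518 for numbers 1 and 3 and at -0.395 for number 2, and since not every pair was above 0.1 the numbers were not taken as pairs. With a replicate block, 1 member was called, Ogn, and 2175 genes over the whole table. Omd had about 47 reads in its lowest library. With 3 libraries a group, an interval as wide as that of Aspn leaves large changes possible in either direction.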
